A study of Danio rerio with 17 samples.

Results

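*en2a*, *en2b*, *pax7a*, *pax7b*, *otx1*, *otx2b*, *dmbx1a*, *dbx1a* and *dbx1b* are 9 transcription factor genes known for their roles in patterning the vertebrate midbrain. They were chosen by name, and all 9 were found among the 25432 genes counted in single cells of the optic tectum, the dorsal midbrain structure that receives visual input from the retina. The larvae were wild type zebrafish (*Danio rerio*) without treatment, and each of 11 batches was a dissection session in which the tecta and the torus longitudinalis of several larvae were pooled. Batches 1, 2, 3, 4, 8, 11 and 12 came from larvae at 7 days post fertilization (dpf), and batches 5, 6, 7 and 10 from larvae at 6 dpf. The study's methods name TL as the wild type strain, and because larvae were pooled, a batch holds no value for a single animal. The question addressed is in which cells of the dissected tissue each gene was detected, whether inhibitory and excitatory neurons differed, and which of the genes were detected in the same cells.

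The midbrain is set up in the embryo by transcription factors that divide the neural tube along its axes. Otx factors specify forebrain and midbrain, Engrailed factors act at and near the midbrain-hindbrain boundary and grade the tectum from posterior to anterior, and Pax7 factors mark its dorsal, alar part. Progenitors line the ventricle, pass through a precursor stage and become neurons, most of which use either GABA or glutamate as a transmitter.

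Cells were captured with a droplet method in which every captured RNA molecule carries a unique molecular identifier (UMI), and a cell barcode is called a barcode here. The batches held 5073733 to 88294858 UMIs. Of 87881 barcodes, 53173 were kept, with 600 to 4000 genes, no more than 7500 UMIs and a mitochondrial share of UMIs up to 10%. Their median depth was 2166 UMIs. Between 815 and 14524 of them came from a batch, and any pair of the 12 droplet lanes shared at most 0.736% of the barcodes of the smaller lane. Batch and not barcode was the replicate in all tests.

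Barcodes were assigned to classes by counting marker genes, none of which was among the 9 genes. The progenitor classes held 7120 barcodes, made up of 1737 cycling, 2767 radial glia, 743 with both *fgfr1b* and *gas1a*, and 1873 precursor barcodes. Neurons held 38957 barcodes, of which 15836 had a UMI of *gad1b* or *gad2* only (GABAergic), 8580 had a UMI of *slc17a6a* or *slc17a6b* only (glutamatergic) and 14541 had neither. The study left a cluster with torus longitudinalis markers out of its tectal analyses. No gate removed such cells here, so the neuron classes can hold some of them. Levels below are UMIs per 10000 UMIs of a class in a batch, and are given as the lowest, median and highest batch. Sums of fewer than 20 barcodes were not used, which left 9 batches for cycling and 10 for *fgfr1b* *gas1a* barcodes.

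Genes outside the gates were used to check the class names, and some of them are given here. Over all batches *slc32a1*, the vesicular GABA transporter, stood at 4.89 in GABAergic and 0.52 in glutamatergic barcodes, and *barhl2*, a factor of excitatory tectal neurons, at 0.70 in GABAergic and 2.18 in glutamatergic barcodes. *hmgb2a*, a chromatin protein of dividing cells, stood at 27.9 in cycling and 2.22 in radial glia barcodes, *mdka* at 25.0 in radial glia and at most 0.99 in both transmitter classes, and *insm1a* at 4.48 in precursors. The values given for *mdka* and *insm1a* do not set radial glia or precursors against the other progenitor classes. The habenula gene *gng8* and the lens gene *crygm2d13* were at most 0.06 and 0.10 in these classes.

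UMIs of the 9 genes were also found in barcodes that should lack them, and the share there is called the background share. The 343 microglia and erythrocyte barcodes had a median of 3214 UMIs, beside 2020 in neurons, and 13.7% of them held a UMI of *pax7a*, the highest share of the 9 genes. The lowest share there was 0.875%, of *dbx1b*. After thinning every barcode to 1000 UMIs these background shares were between 0.233% and 6.89%. Doublets were scored up to a share of each lane fixed beforehand, so the shares scored are no measured doublet rates. Of microglia barcodes 32.6% and of erythrocyte ones 19% were scored as doublets, beside 9.58% of GABAergic and 13% of glutamatergic ones. Background shares were therefore also taken without such barcodes, a setting chosen after seeing the data, which left 242 with a median of 3100.5 UMIs and thinned shares between 0.332% and 5.83%. The parts of free RNA and of remaining doublets in these shares were not tested. At least 1 of the 9 genes was detected in 93.7% of cycling, 85.3% of radial glia, 97.2% of *fgfr1b* *gas1a* and 90.0% of precursor barcodes, against 78.8% of GABAergic and 57.0% of glutamatergic barcodes, and in 34.4% of microglia and erythrocyte barcodes. Of cycling barcodes 41.4% held 4 or more of the genes, against 9.44% of GABAergic and 1.81% of glutamatergic barcodes, with median depths of 3987, 2192 and 2500 UMIs.

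**Figure D1:**
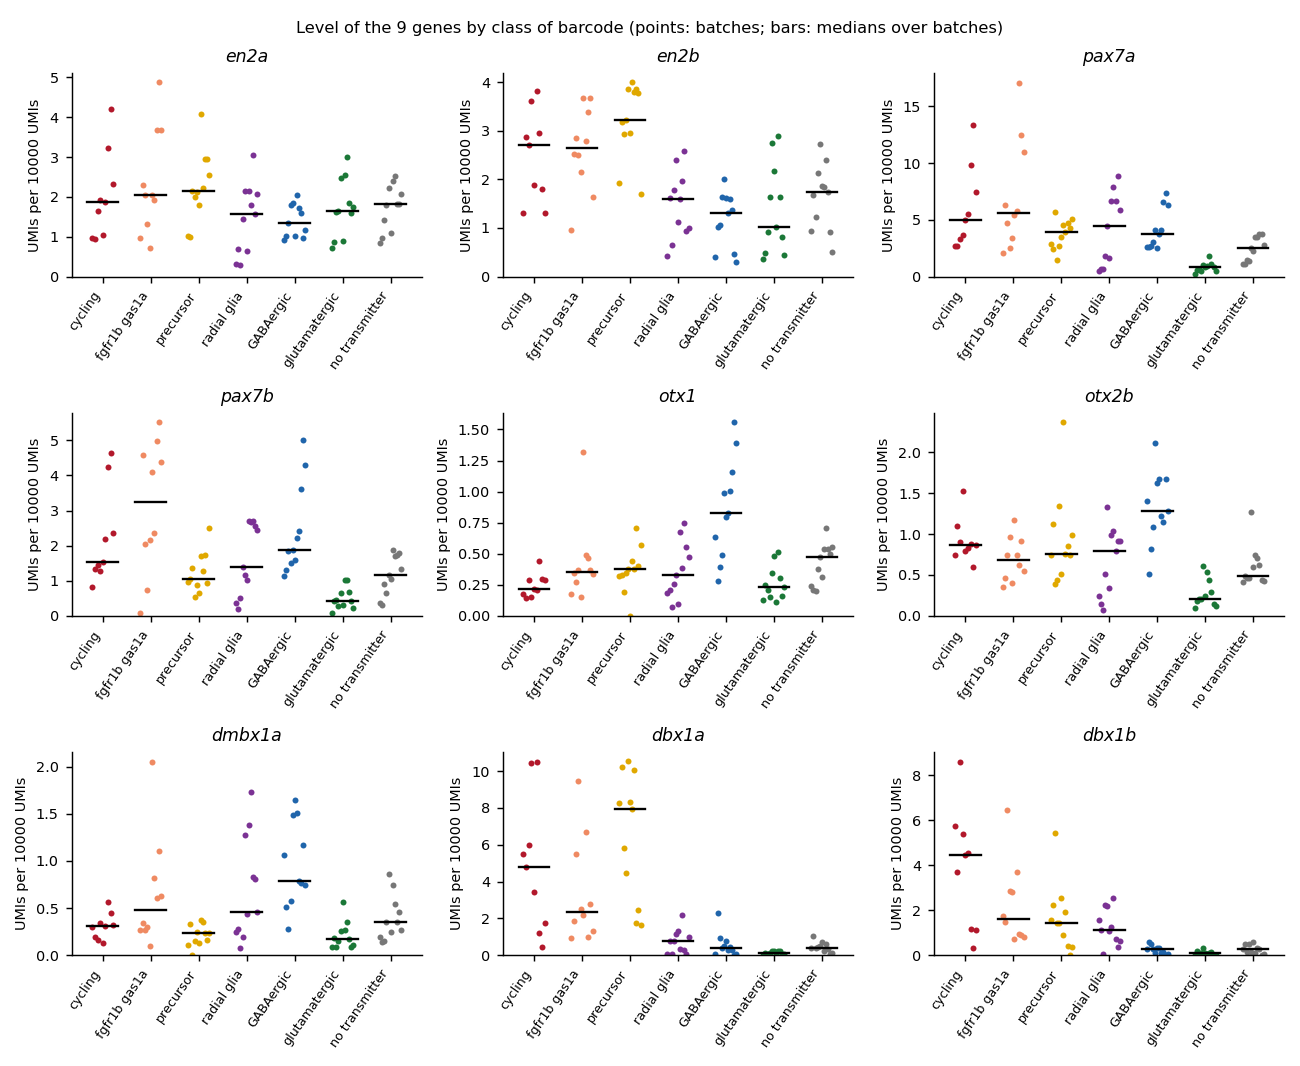
Level of each of the 9 genes in 7 neural classes, in UMIs per 10000 UMIs of a class in a batch, with a point for each batch and a bar at the median over batches. *dbx1a* and *dbx1b* were highest in progenitor classes, with medians of 4.78 and 4.47 in cycling barcodes, while *otx1*, *otx2b* and *dmbx1a* had their highest median in GABAergic neurons.

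The comparison of each progenitor class with neurons asked whether the patterning genes were detected mainly before or after neurons form. In cycling barcodes 7 of the 9 genes were higher than in neurons, in a test that called 34.7% of all 10684 genes higher (quasi-likelihood test of edgeR with batch as a block, Benjamini-Hochberg adjusted p under 0.05). In radial glia 7 of 9 were higher (27.2% of all genes), in *fgfr1b* *gas1a* barcodes 7 of 9 (29.9%) and in precursors 7 of 9 (25.4%). None of the 9 was lower than in neurons in these 4 comparisons, where neurons stand for the mean of the GABAergic and the glutamatergic coefficients. That mean is taken on the log2 scale, with TMM factors, and gives both transmitter classes equal weight. Batch counts against neurons below use levels without TMM factors and take all neurons together. This adds barcodes with no transmitter gene, and each class counts by its UMIs. The batch counts can therefore differ in direction from these fits. Of the 7 genes called in radial glia, *en2b*, *pax7b* and *otx2b* were above all neurons in 5, 4 and 3 of 11 batches. For *dmbx1a*, *pax7a*, *dbx1a* and *dbx1b* it was 6, 7, 7 and 10. Ribosomal protein genes took a median of 33.5% of UMIs in cycling and 17.3% in radial glia barcodes, against 10.9% in GABAergic and 9.12% in glutamatergic barcodes. With scaling by total UMIs in place of TMM factors, chosen after seeing the data, the median of all genes stood at -0.52 on the log2 scale for cycling, -0.18 for radial glia, -0.30 for *fgfr1b* *gas1a* and -0.41 for precursor barcodes. The share of higher among all calls was then 27.6% in place of 51.2% for cycling, 39.1% in place of 49.0% for radial glia, 38.0% in place of 47.5% for *fgfr1b* *gas1a* and 22.4% in place of 48.0% for precursors, and the calls that this scaling ended or added among the 9 genes are named below.

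*dbx1a* and *dbx1b* encode homeodomain factors known in the mouse neural tube for marking progenitors at an intermediate dorsoventral position, and they had the largest estimates of the 9 genes in all 4 comparisons of progenitor classes with neurons. *dbx1a* stood at 0.449, 4.78 and 10.5 in cycling, 0.963, 2.35 and 9.44 in *fgfr1b* *gas1a* and 1.65, 7.92 and 10.5 in precursor barcodes. In radial glia it stood at 0.0610, 0.759 and 2.16, in GABAergic neurons at 0.0365, 0.378 and 2.28 and in glutamatergic neurons at 0.0295, 0.0984 and 0.242. The precursor batches did not overlap with all neurons as 1 class, while radial glia did. Against neurons *dbx1a* was higher in cycling barcodes (log2 fold change 4.75 ± 0.32 (SE), adjusted p = 1.52e-22, edgeR) and in precursors (log2 fold change 4.99 ± 0.31 (SE), adjusted p = 6.67e-24, edgeR). The difference was smaller in radial glia, which were above neurons in 7 of 11 batches (log2 fold change 1.75 ± 0.34 (SE), adjusted p = 9.94e-06, edgeR).

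*dbx1b* stood at 0.300, 4.47 and 8.62 in cycling, 0.0266, 1.45 and 5.46 in precursor and 0.0716, 1.13 and 2.57 in radial glia barcodes. In neurons it stood at 0.00365, 0.261 and 0.569 in GABAergic and 0.00803, 0.0844 and 0.300 in glutamatergic barcodes. It was higher than in neurons in cycling barcodes of 9 of 9 batches (log2 fold change 5.33 ± 0.29 (SE), adjusted p = 2.79e-27, edgeR) and in radial glia of 10 of 11 (log2 fold change 3.42 ± 0.30 (SE), adjusted p = 3.17e-17, edgeR). The highest median of *dbx1b* was in cycling barcodes, while that of *dbx1a* was in precursors. Cycling barcodes were above the next class for *dbx1b*, *fgfr1b* *gas1a* barcodes, in 7 of 8 batches (exact two-sided sign-flip p = 0.0391). For *dbx1a*, precursors were above cycling barcodes in 6 of 9 batches (exact p = 0.0938), so its order of these 2 classes was not resolved. Within progenitors, cycling barcodes exceeded radial glia by 3.00 ± 0.38 (SE) for *dbx1a* and 1.90 ± 0.32 (SE) for *dbx1b* on the log2 scale (edgeR adjusted p = 4.67e-10 and 1.05e-06). A UMI of *dbx1b* was found in 42.7% of cycling barcodes (40.4 to 45.1%, exact binomial 95% interval), against 1.97% of GABAergic and 1.74% of glutamatergic barcodes, and after thinning in 22.3%, against 1.00% and 0.839%. These intervals cover counting error only.

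*pax7a* and *pax7b* encode paired-box factors of the dorsal neural tube. *pax7a* stood at 2.10, 5.62 and 17.1 in *fgfr1b* *gas1a*, 2.68, 4.99 and 13.3 in cycling and 0.488, 4.48 and 8.90 in radial glia barcodes, and at 1.47, 3.95 and 5.65 in precursors. In neurons it stood at 2.54, 3.77 and 7.34 in GABAergic, 0.266, 0.840 and 1.79 in glutamatergic and 1.09, 2.54 and 3.76 in barcodes with no transmitter gene. The GABAergic batches all lay above the glutamatergic ones, and the other classes overlapped with GABAergic neurons. *pax7a* was higher than in neurons in cycling barcodes of 9 of 9 batches (log2 fold change 2.2 ± 0.18 (SE), adjusted p = 9.22e-18, edgeR).

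Radial glia were above neurons for *pax7a* in 7 of 11 batches (log2 fold change 1.2 ± 0.18 (SE), adjusted p = 2.17e-08, edgeR). Their level split by batch, with 0.488, 0.633, 0.716, 1.83 and 1.67 in batches 1, 2, 3, 4 and 6 and at least 4.48 in the other 6. Batches 1 to 4 held 35 to 52 radial glia barcodes each, beside 132 to 1213 in the others, and the part of this in the levels was not tested. Leaving out any single batch kept the call, with log2 fold changes between 1.06 and 1.28.

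*pax7b* stood at 0.0875, 3.24 and 5.52 in *fgfr1b* *gas1a*, 0.835, 1.53 and 4.64 in cycling and 0.211, 1.39 and 2.71 in radial glia barcodes. In GABAergic neurons it stood at 1.14, 1.89 and 5.02 and in glutamatergic neurons at 0.0885, 0.433 and 1.03. GABAergic neurons therefore held the second place in the order of medians, behind *fgfr1b* *gas1a* barcodes. That place was not resolved. The *fgfr1b* *gas1a* barcodes were above them in 7 of 10 batches (exact two-sided sign-flip p = 0.195). GABAergic neurons were above cycling barcodes in 7 of 9 (exact p = 0.176). *pax7b* was higher in cycling barcodes than in neurons (log2 fold change 1.61 ± 0.20 (SE), adjusted p = 5.00e-11, edgeR), and in radial glia by 0.71 ± 0.19 (SE, edgeR adjusted p = 0.00109). The level of radial glia was above that of all neurons in 4 of 11 batches. The precursor difference of 0.58 ± 0.21 (SE, edgeR adjusted p = 0.0168) passed, while the level was above that of all neurons in 3 of 11 batches. With scaling by total UMIs the edgeR fit gave 0.20, adjusted p = 0.446, and without batch 1 or without batch 12 it also missed the threshold.

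*en2a* and *en2b* encode Engrailed homeodomain factors. *en2a* stood at 0.995, 2.14 and 4.07 in precursor, 0.954, 1.88 and 4.2 in cycling and 0.286, 1.58 and 3.04 in radial glia barcodes. It stood at 0.913, 1.35 and 2.05 in GABAergic and 0.708, 1.64 and 3.02 in glutamatergic neurons. All these ranges overlapped, and none of the 6 pairs of neighbours in its order of 7 classes had an exact two-sided sign-flip p under 0.05. Over all members 54 such pairs were compared, and 15 had an unadjusted p under 0.05. The order was set by the medians of these same levels. Cycling barcodes were higher than neurons on the TMM scale (log2 fold change 0.93 ± 0.14 (SE), adjusted p = 1.01e-08, edgeR), although the level was above in 5 of 9 batches, and the fit with scaling by total UMIs gave 0.33, adjusted p = 0.0755. Radial glia differed from neurons by 0.08 ± 0.13 (SE, edgeR adjusted p = 0.645), which did not pass and turned to -0.12 with scaling by total UMIs.

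*en2b* stood at 1.70, 3.22 and 4.00 in precursor, 1.31, 2.71 and 3.82 in cycling and 0.427, 1.6 and 2.57 in radial glia barcodes. It stood at 0.303, 1.31 and 2.00 in GABAergic and 0.354, 1.03 and 2.89 in glutamatergic neurons. Precursors were above all neurons in 11 of 11 batches and above cycling barcodes in 8 of 9 (exact p = 0.00781), with ranges that overlapped in both cases. *en2b* was higher than in neurons in precursors (log2 fold change 1.88 ± 0.15 (SE), adjusted p = 1.29e-18, edgeR) and in cycling barcodes (log2 fold change 1.73 ± 0.15 (SE), adjusted p = 1.75e-16, edgeR). The difference of radial glia from neurons was 0.48 ± 0.15 (SE, edgeR adjusted p = 0.00516), and with scaling by total UMIs 0.33, adjusted p = 0.0785. The level of radial glia was above that of all neurons in 5 of 11 batches.

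*otx1* and *otx2b* encode Orthodenticle homeodomain factors of forebrain and midbrain. *otx1* had its highest median in GABAergic neurons, as did *otx2b* and *dmbx1a*. It stood at 0.140, 0.213 and 0.441 in cycling, 0.0716, 0.333 and 0.747 in radial glia and 0, 0.374 and 0.709 in precursor barcodes, and at 0.284, 0.824 and 1.56 in GABAergic and 0.114, 0.237 and 0.513 in glutamatergic neurons. Cycling barcodes were below all neurons in 9 of 9 batches, with overlapping ranges. On the TMM scale no progenitor class differed from neurons past the threshold (cycling -0.29 ± 0.20, SE, edgeR adjusted p = 0.201), and with scaling by total UMIs *otx1* was lower in cycling barcodes (-0.86, adjusted p = 0.000256).

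*otx2b* stood at 0.599, 0.860 and 1.52 in cycling, 0.0716, 0.791 and 1.33 in radial glia and 0.390, 0.758 and 2.37 in precursor barcodes. In GABAergic neurons it stood at 0.512, 1.29 and 2.11 and in glutamatergic neurons at 0.0984, 0.206 and 0.610. GABAergic neurons were above cycling barcodes in 8 of 9 batches (exact p = 0.0312), and the class at the bottom of the order was the glutamatergic one. Against the mean of both transmitter classes, cycling barcodes were higher (log2 fold change 1.36 ± 0.18 (SE), adjusted p = 7.60e-10, edgeR). In *fgfr1b* *gas1a* barcodes the difference was 0.41 ± 0.22 (SE, edgeR adjusted p = 0.0972), which passed without batch 2 (0.48) or batch 10 (0.60). The level in *fgfr1b* *gas1a* barcodes was above that of all neurons in 1 of 10 batches. The radial glia difference of 0.44 ± 0.18 (SE, edgeR adjusted p = 0.0275) passed, while the level was above that of all neurons in 3 of 11 batches. It was not kept when batch 8, batch 11 or batch 12 was left out (0.37, 0.32 and 0.30), and with scaling by total UMIs the fit gave 0.26, adjusted p = 0.201.

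*dmbx1a* encodes a paired-like homeodomain factor of the embryonic diencephalon and midbrain. It stood at 0.0716, 0.463 and 1.73 in radial glia, 0.0937, 0.475 and 2.06 in *fgfr1b* *gas1a*, 0.126, 0.307 and 0.564 in cycling and 0, 0.233 and 0.370 in precursor barcodes, and at 0.281, 0.789 and 1.65 in GABAergic and 0.0883, 0.170 and 0.564 in glutamatergic neurons. Its level in GABAergic neurons was above that in *fgfr1b* *gas1a* barcodes, the next class, in 7 of 10 batches (exact sign-flip p = 0.123). *dmbx1a* was the 1 gene of the 9 that was lower in cycling barcodes than in radial glia (log2 fold change -0.77 ± 0.25 (SE), adjusted p = 0.00750, edgeR), in 8 of 9 batches. Of the others 7 were higher in cycling barcodes than in radial glia, so that 8 of 9 genes differed, where 46.2% of all genes did, and *otx1* did not pass at -0.13 ± 0.24 (SE). Without batch 8, which held 1213 of the 2767 radial glia barcodes, the *dmbx1a* difference was -0.54 and missed the threshold. With scaling by total UMIs the higher calls of *pax7b* and *otx2b* in this comparison were not kept (edgeR adjusted p = 0.0805 and 0.0576), the median of all genes was -0.46 and 21.1% of all calls were higher, in place of 48.1%.

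Against neurons *dmbx1a* was higher in radial glia (log2 fold change 1.01 ± 0.18 (SE), adjusted p = 1.93e-06, edgeR), while the level of radial glia was above that of all neurons in 6 of 11 batches. In cycling barcodes it differed by 0.25 ± 0.22 (SE, edgeR adjusted p = 0.325), and by -0.35 with scaling by total UMIs, neither of which passed. In *fgfr1b* *gas1a* barcodes it was higher by 0.70 ± 0.24 (SE, edgeR adjusted p = 0.00738), and with scaling by total UMIs by 0.47, adjusted p = 0.104, which did not pass. In precursors the difference was -0.49 ± 0.24 (SE, edgeR adjusted p = 0.0804), which passed without batch 2 (-0.56) or batch 8 (-0.59). With scaling by total UMIs *dmbx1a* was also lower there (-0.94, adjusted p = 0.00197).

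**Figure D2:**
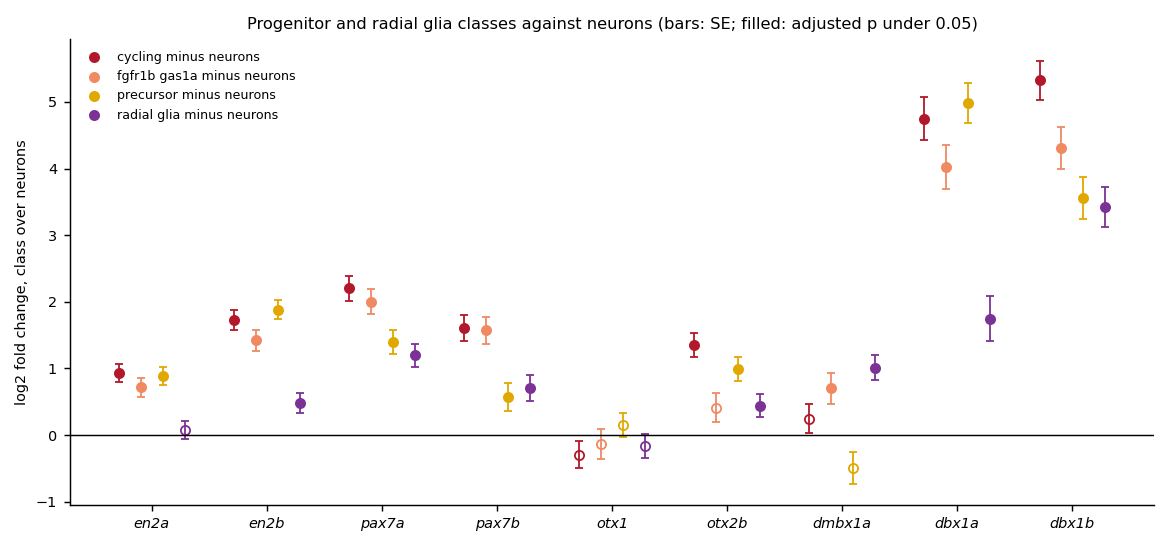
Log2 fold change of each of the 9 genes in 4 progenitor classes over neurons, from the edgeR fit with TMM scaling, where bars are standard errors, filled points have an adjusted p under 0.05, and neurons are the mean of GABAergic and glutamatergic coefficients. *dbx1a* and *dbx1b* reached 4.75 and 5.33 in cycling barcodes, and all 4 points of *otx1* are open, between -0.29 and 0.15.

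GABAergic and glutamatergic neurons were compared to see whether patterning genes go with a transmitter class. *pax7a*, *pax7b*, *otx1*, *otx2b* and *dmbx1a* were all higher in GABAergic neurons, in 11 of 11 batches each, and *en2a*, *en2b*, *dbx1a* and *dbx1b* did not pass. These 5 of 9 genes stand beside 3.23% of all 10684 genes that were called higher in GABAergic neurons (edgeR, as above). The same 5 genes were called with scaling by total UMIs, where the median of all genes was 0.01. Fewer cells of a type and less RNA per cell cannot be told apart for a class sum. The shares of barcodes below cannot separate them either, because a share with a UMI also falls with less RNA per cell. Of the barcodes with a UMI of a gene, 41.6% (*pax7a*) to 72.9% (*otx2b*) held a single UMI.

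*pax7a* was higher in GABAergic than in glutamatergic neurons (log2 fold change 2.38 ± 0.22 (SE), adjusted p = 6.32e-14, edgeR), and *pax7b* was also higher (log2 fold change 2.35 ± 0.23 (SE), adjusted p = 5.05e-13, edgeR). The batch ranges of both genes did not overlap between the classes. *otx2b* was higher as well (log2 fold change 2.38 ± 0.20 (SE), adjusted p = 9.25e-16, edgeR), with ranges that overlapped. *dmbx1a* had the highest estimate of the 9 genes (log2 fold change 2.49 ± 0.22 (SE), adjusted p = 3.41e-15, edgeR), and *otx1* the lowest of these 5 (log2 fold change 1.90 ± 0.18 (SE), adjusted p = 1.63e-13, edgeR). Both overlapped between the classes. In each of these 5 genes barcodes with no transmitter gene had a median between those of the 2 transmitter classes. For *pax7a* both steps of that order held in 11 of 11 batches (exact sign-flip p = 0.000977 each, the smallest that 2048 sign patterns allow).

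*en2a* stood -0.29 ± 0.15 (SE) on the log2 scale between GABAergic and glutamatergic neurons (edgeR adjusted p = 0.372), and *en2b* -0.27 ± 0.17 (edgeR adjusted p = 0.556). Each was higher in GABAergic neurons in 4 of 11 batches. *dbx1a* differed by 1.04 ± 0.40 (SE, edgeR adjusted p = 0.135) and *dbx1b* by 0.68 ± 0.40 (SE, edgeR adjusted p = 0.491), each higher in GABAergic neurons in 9 of 11 batches. The *dbx1a* difference passed with DESeq2 (1.45) and without batch 10 (1.32), and not under the other settings run.

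Shares of barcodes with a UMI followed the levels. A UMI of *pax7a* was present in 38.8% of GABAergic (38.1 to 39.6%, exact binomial 95% interval) and 13% of glutamatergic barcodes (12.3 to 13.7%), beside 13.7% of microglia and erythrocyte barcodes. After thinning, the *pax7a* shares were 28.1% in GABAergic, 6.67% in glutamatergic and 6.89% in microglia and erythrocyte barcodes. Without barcodes scored as doublets they were 28.0%, 6.27% and 5.83%, so that the share in glutamatergic neurons was below the background share with doublets and slightly above it without. The thinned share of *otx2b* was 10.8% in GABAergic and 2.60% in glutamatergic barcodes, beside a background share of 2.83%, and that of *dmbx1a* was 5.08% and 1.5%, beside 1.98%. Without barcodes scored as doublets the thinned share in glutamatergic barcodes was 2.61% for *otx2b*, beside a background share of 2.58%, and 1.5% for *dmbx1a*, beside 2.51%. The unthinned background shares without doublets rest on 26, 13 and 10 barcodes for *pax7a*, *otx2b* and *dmbx1a*, with exact binomial 95% intervals of 7.14 to 15.3%, 2.89 to 9.01% and 2.00 to 7.47%. The unthinned shares of glutamatergic barcodes were 11.8%, 5.28% and 3.03%. Median depths were 3100.5 UMIs in the background and 2350 in glutamatergic barcodes. The intervals pool batches and cover counting error only, so they cannot decide whether the shares differ. *pax7b* had 22.8% and 4.58%, beside 3.73%. *en2a* was above its background share of 3.76% in both classes, with 11.6% in GABAergic and 15% in glutamatergic barcodes.

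**Figure D3:**
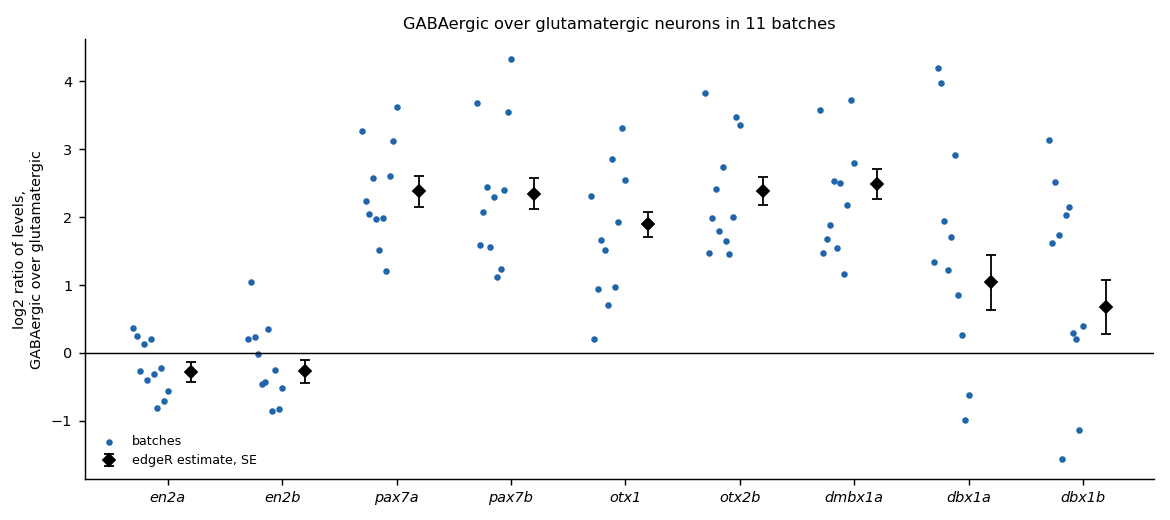
Log2 ratio of the level in GABAergic over that in glutamatergic neurons for each of the 9 genes, with a point for each of 11 batches and a diamond with its standard error for the edgeR estimate. *pax7a*, *pax7b*, *otx1*, *otx2b* and *dmbx1a* were higher in GABAergic neurons in 11 of 11 batches, and *en2a* and *en2b* in 4 of 11.

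Other genes of the same programmes were taken from fixed lists. Of 11 tested factors known from midbrain GABAergic neurons, 9 were higher in GABAergic neurons, where 3.23% of all genes were, and 0 lower. Their median log2 fold change was 2.49, beside -0.02 over all genes. *sox14* (2.90), *tal1* (2.87) and *lhx1a* (2.82), factors that specify GABAergic neurons of the midbrain, had the largest changes. Of 18 tested factors known from glutamatergic neurons, 15 were lower in GABAergic neurons, where 3.04% of all genes were, with a median of -1.38 and *onecut1* (-2.18), *neurod2* (-1.92) and *barhl1b* (-1.74) at the far end. Of 23 other tested midbrain patterning genes 4 were higher and 4 lower, with a median of -0.15. Among these *emx2* (2.72) and *dmbx1b* (2.59), the paralogue of *dmbx1a*, were higher and *sp5l* (-1.68), an Sp family factor, was lower. Of 21 tested markers that the study chose on these libraries for tectal neuron types, and which are no independent evidence, 5 were higher and 11 lower. The marker list shares *onecut1*, *neurod1*, *zic2a* and *foxb1a* with the glutamatergic list, and *sp5l* and *irx1b* with the patterning list. For these shared genes the counts above are no independent evidence either. *pou4f1*, *barhl2* and *lhx9*, genes used to check the class names, are on the glutamatergic list too.

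The same patterning list was counted in progenitors, with genes in both directions. In cycling barcodes 10 of 23 were higher than in neurons and 9 lower, where 34.7% of all genes were higher and 33% lower. Both counts were near these shares. *pax3a* (5.13), a paired-box factor related to *pax7a*, and *otx2a* (3.70), the paralogue of *otx2b*, had the largest changes. In radial glia 13 were higher and 8 lower, where 27.2% of all genes were higher and 28.3% lower. There *spry2* (4.76), an inhibitor of FGF signalling, led with *pax3a* (4.22) and *wnt3a* (2.54), a Wnt ligand of the dorsal midline.

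For each pair of the 9 genes, neurons with a UMI of both were counted and set against the count that their separate detection rates give among barcodes of the same batch, class and depth. Of 36 pairs 31 were found together more often than expected over all batches, and 23 had an exact two-sided sign-flip p under 0.05 in that direction and 0 in the other. The same rule called 8.42% of 113042 pairs of a member with another gene that reached a minimum share of neurons with a UMI. That minimum left 11816 to 12859 genes for each member. The median ratio of observed to expected was 1.13 over the 36 pairs and 1.00 over all such pairs. The p-values are not adjusted, and pairs that share a gene are not independent. Neurons with no transmitter gene could not be matched for transmitter. The ratios can therefore hold part of the difference between the transmitter classes, and that part was not tested. In GABAergic neurons alone, a setting chosen after seeing the data, 23 of 36 pairs were above expectation. An exact p under 0.05 in that direction was found for 15 of them.

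The paralogues of each family were found together. *dbx1a* and *dbx1b* shared 131 neurons where 47.9 were expected, a ratio of 2.74 and the highest of the 36, with 1.24 to 12.7 over the batches. *pax7a* and *pax7b* shared 4610 neurons, a ratio of 1.45 and 1.27 to 2.34 over the batches, and *en2a* and *en2b* shared 2864, a ratio of 1.38 and 1.24 to 1.85. Each was above 1 in 11 of 11 batches (exact p = 0.000977). Paralogues are similar in sequence, and reads that could be assigned to either of a pair were not tested.

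*dmbx1a* and the Otx genes were also found together. *otx2b* and *dmbx1a* shared 748 neurons where 423 were expected, a ratio of 1.77, above 1 in 11 of 11 batches (exact p = 0.000977). *otx1* and *dmbx1a* had a ratio of 1.66 and *otx1* and *otx2b* of 1.32, each above 1 in 10 of 11 batches (exact p = 0.00195). *pax7b* was found with *dmbx1a* at a ratio of 1.2, in 11 of 11 batches. *pax7a* and *dmbx1a*, both higher in GABAergic neurons, had a ratio of 0.899, above 1 in 6 of 11 batches (exact p = 0.709). In GABAergic neurons alone, a setting chosen after seeing the data, that ratio was 0.737, above 1 in 4 of 11 batches (exact p = 0.0596), and in progenitor classes, also chosen after seeing the data, it was 1.12 (exact p = 0.0215).

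*en2a* was found with members of the other families close to expectation, with ratios from 0.973 with *otx2b* to 1.12 with *dbx1b*. Of these only the ratio with *pax7a* (1.07, exact p = 0.0146) had a p under 0.05. *en2b* was found with *pax7a* at 1.11 in 11 of 11 batches and with *dbx1a* at 1.29 in 10 of 11. *pax7a* was found with *dbx1b* at 1.36 in 11 of 11 batches. In progenitor classes 20 of 36 pairs had an exact p under 0.05 above expectation, and the ratio of *dbx1a* with *dbx1b* was 1.35, that of *en2a* with *en2b* 1.21 and that of *pax7a* with *pax7b* 1.17. Without barcodes scored as doublets 21 pairs in neurons had such a p.

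**Figure D4:**
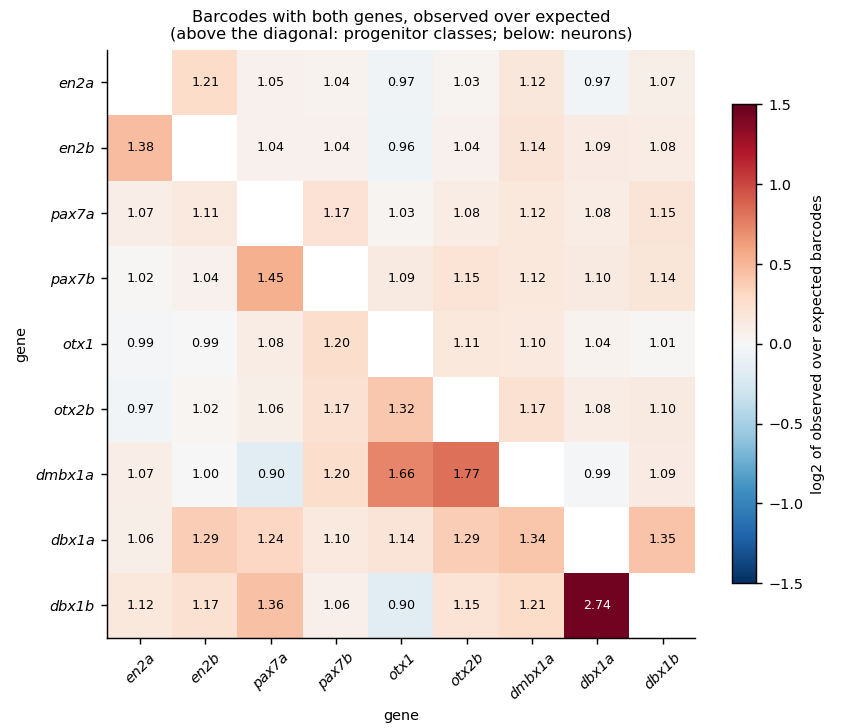
Ratio of observed to expected barcodes with a UMI of both genes for the 36 pairs, printed in each cell and coloured on a log2 scale, in progenitor classes above the diagonal and in neurons below it. In neurons the ratios run from 0.898 (*otx1* and *dbx1b*) to 2.74 (*dbx1a* and *dbx1b*).

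Genes that went with each member were sought by summing barcodes with a UMI of it against as many without, drawn from the same batch, class and depth. Of the 8 other members, *en2a* barcodes were higher in 3 (14% of all genes tested), *en2b* in 6 (14.8%), *pax7a* in 5 (8.41%) and *pax7b* in 6 (5.09%). The barcodes with *otx1* were higher in 3 (2.85%), with *otx2b* in 5 (4.33%), with *dmbx1a* in 5 (6.14%), with *dbx1a* in 5 (9.1%) and with *dbx1b* in 6 (11.7%). In these 9 edgeR fits no other member was lower past the threshold. *dmbx1a* in *pax7a* barcodes came nearest (-0.47 ± 0.17, SE, edgeR adjusted p = 0.0693), was higher in 6 of 11 batches and passed under 1 of 3 alternatives. For each member 3 genes are named below, those with the largest rise among genes past the threshold with at least 100 UMIs and a higher level in 11 of 11 batches, so that 11 of 11 is part of the choice and supports nothing. All 27 were also called under the 3 alternatives of these fits. Genes that missed a batch were not eligible, and some of them had larger estimates, such as *adora1a* (1.07) with *en2a*, *en1b* (1.77), *pax5* (1.74) and *pax2a* (1.62) with *en2b*, *sox21b* (1.6) with *pax7a*, *tal1* (1.14) with *pax7b*, *hs6st3b* (1.64) with *otx1*, *dmbx1b* (1.17) with *otx2b* and *zfpm1* (1.41) with *dmbx1a*, each higher in 10 of 11 batches. The named genes describe which transcripts share a cell, and nothing about control was tested.

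The genes named for *en2a* were *en2b* (log2 fold change 0.99 ± 0.08 (SE), adjusted p = 5.84e-10, edgeR), the uncharacterized *si:dkey-246i14.3* (0.96 ± 0.10, SE) and *si:ch211-198m17.1* (0.77 ± 0.11). Those for *en2b* were *rbm33b* (log2 fold change 1.13 ± 0.17 (SE), adjusted p = 8.58e-06, edgeR), *en2a* (0.97 ± 0.06, SE) and *FP245456.1* (0.87 ± 0.11). RefSeq's GRCz12tu gene table places *rbm33b* on the chromosome of *en2b* with 1 gene between them, and reads shared between neighbours were not tested.

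In *pax7a* barcodes *slc12a4*, a potassium-chloride cotransporter, stood at 0.0360, 0.151 and 0.523, against 0.0217, 0.0471 and 0.131 in barcodes without (log2 fold change 1.44 ± 0.14 (SE), adjusted p = 8.25e-08, edgeR). *tal1* (1.25 ± 0.07, SE), a factor of GABAergic fate, and *pax3a* (1.24 ± 0.13) were the others named. Those for *pax7b* were *pax7a* (log2 fold change 1.09 ± 0.10 (SE), adjusted p = 2.01e-09, edgeR), *sox21b* (0.97 ± 0.11, SE) and *zfpm2b* (0.93 ± 0.09), a cofactor of GATA proteins.

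Of the 27 the highest estimate was that of *calb2b*, which encodes the calcium-binding protein calretinin, in *dmbx1a* barcodes. Its level was 0.317, 2.10 and 4.78 in barcodes with *dmbx1a*, against 0.0691, 0.360 and 0.744 without (log2 fold change 2.45 ± 0.12 (SE), adjusted p = 3.33e-15, edgeR). The batch ranges overlapped, and the batch with the lowest value among those with *dmbx1a* lay below the median of those without. *efhd1* (1.11 ± 0.15, SE), which encodes a calcium-binding mitochondrial protein, and *cyp26b1* (1.09 ± 0.14), which degrades retinoic acid, were the others named. Those for *otx2b* were *dmbx1a* (log2 fold change 1.48 ± 0.09 (SE), adjusted p = 1.27e-13, edgeR), the homeobox gene *uncx4.1* (0.93 ± 0.10, SE) and *pcp4l1* (0.92 ± 0.10). Those for *otx1* were the zinc finger gene *zic2a* (log2 fold change 1.47 ± 0.16 (SE), adjusted p = 8.26e-08, edgeR), *dmbx1a* (1.2 ± 0.10, SE) and *nfia* (0.92 ± 0.09). *zic2a* is on the fixed list of factors of glutamatergic neurons, while *otx1* was higher in GABAergic neurons.

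For the Dbx genes the named genes were a Notch ligand, a filament, a transcription factor, binding proteins and a cytochrome P450. *dlc*, a Delta ligand of the Notch pathway, stood at 0.118, 0.376 and 1.41 in barcodes with *dbx1a*, against 0, 0.0883 and 0.330 without (log2 fold change 1.90 ± 0.17 (SE), adjusted p = 8.02e-09, edgeR). *vim* (1.63 ± 0.20, SE), the intermediate filament of neural progenitors, and *helt* (1.31 ± 0.16), known in the mouse for GABAergic fate in the midbrain, were the others named. The ranges of *dlc* overlapped. In *dbx1b* barcodes *igfbp5b*, which encodes an insulin-like growth factor binding protein, stood at 0.0914, 0.386 and 18, against 0.0588, 0.259 and 2.09 without (log2 fold change 1.88 ± 0.23 (SE), adjusted p = 1.40e-06, edgeR). Its ranges overlapped, and its medians differed by less than the 3.68 fold of the estimate. *rbp5* (1.58 ± 0.20, SE), a retinol-binding protein, and *cyp27c1* (1.51 ± 0.15), a cytochrome P450 that acts on retinoids, were the others named.

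The fixed lists were counted in the same fits. In *en2a* barcodes 14 of 20 tested patterning genes were higher and 0 lower, led by *cnpy1* (0.79), a regulator of FGF signalling at the midbrain-hindbrain boundary, and in *en2b* barcodes 14 of 23 were higher and 1 lower, led by *en1b* (1.77), *pax5* (1.74) and *pax2a* (1.62), genes of that boundary. With *en2a* 14% of all genes tested were higher, and with *en2b* 14.8%. Factors of glutamatergic neurons were higher for 9 of 18 and lower for 1 with *en2a*, and higher for 12 of 18 and lower for 0 with *en2b*. They were lower for 15 of 18 with *pax7a* (6.42% of all genes were lower), 13 of 16 with *pax7b* (4.49%), 9 of 13 with *otx1* (3.98%), 13 of 16 with *otx2b* (5.63%) 12 of 13 with *dmbx1a* (6.01%), 9 of 14 with *dbx1a* (8.62%) and 11 of 12 with *dbx1b* (11.7%), and higher for 2 each with *pax7a* and *otx1*. The share of all genes that were higher was 8.41% with *pax7a*, 5.09% with *pax7b*, 2.85% with *otx1* and 4.33% with *otx2b*. It was 6.14% with *dmbx1a*, 9.1% with *dbx1a* and 11.7% with *dbx1b*. Factors of GABAergic neurons were higher for 6 of 12 with *en2a*, 7 of 12 each with *en2b* and *pax7a*, 7 of 11 with *pax7b*, 3 of 9 with *otx1*, 10 of 11 with *otx2b*, 4 of 9 with *dmbx1a*, 3 of 10 with *dbx1a* and 3 of 10 with *dbx1b*, and lower for 3 with *dbx1b* and for 0 with the others. With *otx2b* the largest of these rises were of *lhx5* (0.90) and *sox14* (0.84), and with *pax7b* of *tal1* (1.14). With *dbx1a* and with *dbx1b* the 3 higher factors were *helt*, *ascl1a* and *ascl1b*. These 3 were also higher in cycling barcodes than in neurons (log2 fold changes 5.22, 4.12 and 3.97), and *ascl1a* and *ascl1b* are precursor gate genes. The barcodes compared were matched for class, but progenitor barcodes and neurons with no transmitter gene could not be matched for transmitter. Stage within a class was not matched. These counts can therefore hold part of the difference between the transmitter classes or between stages, and that part was not tested.

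Ages were compared on sums over all neurons of a batch, with 7 batches at 7 dpf and 4 at 6 dpf and the sequencer as a covariate. No member passed, and 0% of 16362 genes did (edgeR). At an unadjusted p under 0.05, 3 of 9 members and 6.49% of all genes had a difference, and DESeq2 called 21 genes and 0 members. That number of members was 6 without batch 8, whose age has conflicting labels, 5 without batch 2 or batch 7, 2 without batch 5 or batch 12, and 3 without any other batch. All 9 estimates were below 0, and with 9 chosen genes this is a description.

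*dmbx1a* stood at 0.172, 0.355 and 0.695 at 7 dpf, against 0.475, 0.812 and 1.05 at 6 dpf (-0.99 ± 0.32, SE, edgeR unadjusted p = 0.00817, adjusted p = 0.726). *otx2b* stood at 0.429, 0.567 and 0.954 at 7 dpf, against 0.747, 0.995 and 1.48 at 6 dpf (-0.74 ± 0.25, SE, edgeR unadjusted p = 0.00894, adjusted p = 0.726). *en2b* stood at 0.385, 1.11 and 2.10 at 7 dpf, against 1.44, 1.69 and 2.45 at 6 dpf (-0.85 ± 0.32, SE, edgeR unadjusted p = 0.0188, adjusted p = 0.726). For all 9 genes the ranges of the ages overlapped.

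The batches at 7 dpf were not alike. *pax7a* was 1.08, 1.34, 1.56 and 1.6 in batches 1 to 4 and 3.52, 4.64 and 3.95 in batches 8, 11 and 12, against 2.88, 2.18, 3.22 and 4.22 at 6 dpf in batches 5, 6, 7 and 10. *otx1* split the same way, with at most 0.339 in batches 1 to 4 and at least 0.817 in batches 8, 11 and 12, against 0.449 to 0.730 at 6 dpf. Batches 10, 11 and 12 were read on another sequencer than the rest, going by the study's methods and the batch numbers. Within that sequencer *dmbx1a* was 0.695 and 0.467 at 7 dpf, against 0.475 at 6 dpf, and within the other it was 0.172 to 0.627 in 5 batches at 7 dpf, against 0.632 to 1.05 in 3 at 6 dpf.

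Whether the difference between transmitter classes itself changed with age was tested by an interaction term. No member and 0% of 9752 genes passed (edgeR). At an unadjusted p under 0.05, *otx2b*, *pax7b* and *dbx1b* did, with differences of 0.92, 1.07 and 1.18 on the log2 scale (adjusted p = 1 each), beside 2.09% of all genes. The number of members at such a p was 6 without batch 8, 0 without batch 5 and 1 to 2 without any other batch, and it was 0 with DESeq2.

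**Figure D5:**
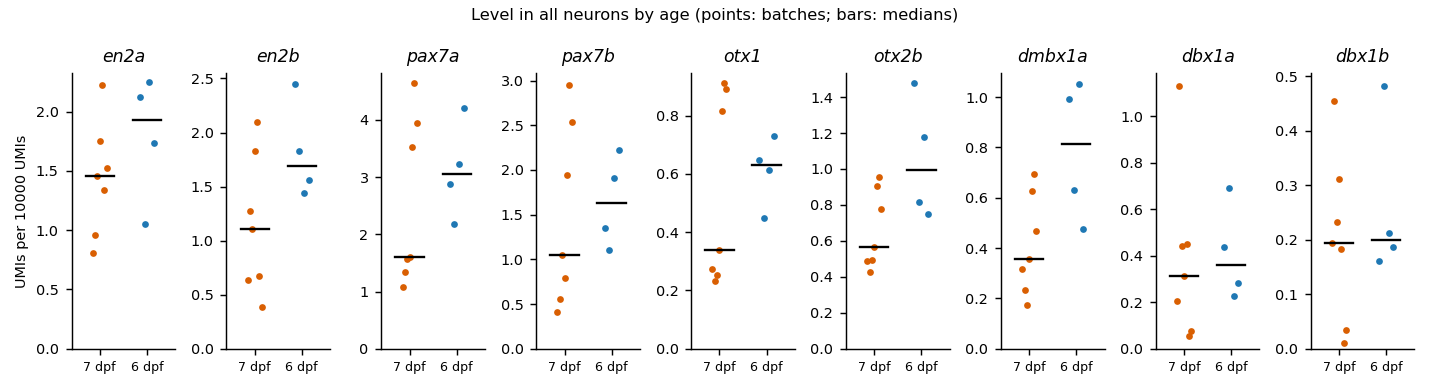
Level of each of the 9 genes in all neurons, in UMIs per 10000 UMIs, in 7 batches at 7 dpf and 4 batches at 6 dpf, with a point for each batch and a bar at the median. The ages overlapped for all 9 genes, and *dmbx1a* had medians of 0.355 at 7 dpf and 0.812 at 6 dpf.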

How the data were processed

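Per the labels and the study's methods, the authors dissociated the tissue with papain, made libraries with 10x 3′ v3 chemistry, and aligned reads to GRCz11 with Cell Ranger 7.1.0. The deposited values are raw UMI counts per gene and barcode, without normalization. Lanes of a batch were summed. The members and lists were chosen with earlier results of these data known.

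Barcodes were gated in a fixed order by the number of panel genes with a UMI: cycling at least 3 of 16, radial glia 4 of 10, *fgfr1b* and *gas1a* both, precursor 2 of 7 and neurons 2 of 8. Barcodes with both transmitter kinds were left out. Doublets were scored and removed only as an alternative. In each lane the highest scores were taken up to the share that the study removed, so the 6100 barcodes are a preset number. Counts were summed per class and batch and fitted with edgeR 4.0.16 (TMM, filterByExpr, batch as block, adjusted p under 0.05). Batches were used as a block because the classes of a batch share its dissection. DESeq2 1.42.0 was an alternative, beside no filter, no block, stricter gates, a minimum of 800 genes, no adjacent tissue and each batch left out. Settings added after seeing the data were scaling by total UMIs, *gad1b* alone as the inhibitory gate, shares without doublets, and co-detection in progenitor classes and in GABAergic neurons. Co-detection used sign flips over 2048 patterns. Genes named with a member were the 3 with the largest rise past the threshold, with at least 100 UMIs and higher in every batch. Of these 26 genes, 24 matched the RefSeq table by symbol. Calculations used Python 3.11.15, numpy 2.4.6, scipy 1.17.1, pandas 2.3.3, scikit-learn 1.9.0 and R 4.3.3, and were tested on simulated data. Whether larvae of different batches shared parents is not given in the sources used here. For batch 8, 1 label gives another age than the rest, and it was taken as 7 dpf.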

Additional observations from a re-analysis of the deposited data

Results flagged for a closer look

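In all neurons, batch 2 had the highest *dbx1a* level of the 7 batches at 7 dpf, 1.13 UMIs per 10000 UMIs, far from the next batch at 0.453 and the lowest at 0.0548. Batch 6 had the highest *dbx1b* level of the 4 batches at 6 dpf, 0.482, with the next at 0.213 and the lowest at 0.162. Both passed Dixon's test for a value far from the others in its group. Of 18 groups tested, these 2 stood out, and chance marks about 1 in 20. Their cause was not tested.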

How the results depend on the processing

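The number of members called kept within 1.5 times of its value in all comparisons under all settings run, except 3. The interaction of transmitter class and age called 1 member (*pax7b*) with no filter on low counts. Pairs above expectation with an exact p under 0.05 numbered 12 at 2 or more UMIs of each gene and 15 in GABAergic neurons, against 23. The cause of these 3 changes was not tested. At 2 or more UMIs, 1 pair was below expectation with such a p. Leaving out 1 batch at a time gave 7 members in cycling barcodes, 6 to 7 in radial glia, 5 to 6 between GABAergic and glutamatergic neurons, and 0 for age and for the interaction. It gave 20 to 23 pairs above expectation with an exact p under 0.05. In the fits of barcodes with and without a member, 44 of the tests of other members passed, 42 with another draw, 36 without doublets and 41 with DESeq2. Among co-detection ratios that crossed 1, those with an exact p under 0.05 in neurons or under that setting were *en2a* with *otx2b* (1.03), *pax7a* with *dmbx1a* (1.12) and *dmbx1a* with *dbx1a* (0.992) in progenitor classes, *en2b* with *pax7b* (0.977), *pax7a* with *otx1* (0.991) and *pax7a* with *otx2b* (0.965) in GABAergic neurons, and *pax7a* with *otx2b* (0.965) at 2 or more UMIs. A further 5 crossed in GABAergic neurons, 2 in progenitor classes, 4 at 2 or more UMIs, and 1 each over 7 neural classes and without adjacent tissue, all with no such p, the farthest being *otx1* with *dbx1a* in GABAergic neurons (0.833). Leaving out batch 5 or batch 11 made 2 cross, and batch 6 or batch 8 1.

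Without the replicate block, the batch, the comparison of GABAergic and glutamatergic neurons called 144 genes (88 higher, 56 lower) in place of 670 (345 and 325), radial glia 3823 in place of 5934, precursors 3633 in place of 5652 and cycling against radial glia 3126 in place of 4941. Among the members it ended the radial glia calls of *en2b* and *otx2b*, the *fgfr1b* *gas1a* call of *dmbx1a*, the precursor call of *pax7b* and the cycling against radial glia calls of *dmbx1a* and *pax7b*. No filter also ended the radial glia call of *otx2b*, the *fgfr1b* *gas1a* call of *dmbx1a* and the precursor call of *pax7b*. *gad1b* alone as the inhibitory gate ended the radial glia call of *otx2b* and the precursor call of *pax7b* and called *otx1* lower in cycling (-0.46) and *dmbx1a* lower in precursor barcodes (-0.61), and DESeq2 also called *dmbx1a* lower there (-0.62). Stricter gates called *dmbx1a* higher in cycling barcodes (0.61) and *en2a* in radial glia (0.39), and both DESeq2 (0.63) and stricter gates (0.66) called *otx2b* higher in *fgfr1b* *gas1a* barcodes. Scaling by total UMIs called 424 genes between the transmitter classes, and no filter called 10245 in *fgfr1b* *gas1a* barcodes in place of 6740. For age, DESeq2 called 21 genes and no filter 4, in place of 0, and for the interaction no filter called 14 and leaving out batch 8 called 1, in place of 0. Depth limits every member, since 41.6% (*pax7a*) to 72.9% (*otx2b*) of the barcodes with a UMI of a gene held a single UMI.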
